A study of Mus musculus with 18 samples.

Results

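Tuft cells are a rare chemosensory cell type of the intestinal epithelium, and 9 genes that mark them were followed across sorted colon epithelial cells and colon crypts of mice with and without Olfr78, a receptor for short-chain fatty acids. The 9 genes (Pou2f3, Gnat3, Plcb2, Trpm5, Rgs13, Dclk1, Il25, Alox5ap and Ltc4s) were taken by name from tables of 52636 genes, and each name matched 1 row of both tables. In GRCm38 Dclk1 lies at chr3:55242364-55539068, Trpm5 at chr7:143069153-143094642, Rgs13 at chr1:144138654-144177372, Pou2f3 at chr9:43123939-43210369, Gnat3 at chr5:17962549-18019834, Plcb2 at chr2:118707517-118728438, Ltc4s at chr11:50236461-50238616, Alox5ap at chr5:149264767-149288153 and Il25 at chr14:54932695-54935837, and the values sum the exons of each gene. RNA was sequenced in 18 libraries, 6 of sorted cells and 12 of crypts. The sorted libraries were 2 Epcam+ve samples of 1 WT mouse, which the sample titles name Epcam+ve/GFP-ve, 2 pools of Epcam+ve/GFP+ve cells of Olfr78-GFP heterozygous (HE) mice and 2 such pools of Olfr78-GFP homozygous (KO) mice, each pool from 2 mice of 4 to 7 months. The crypt libraries came from 1 mouse each. Of the Olfr78-GFP line there were 2 WT and 5 KO mice, the knocked-in allele having GFP and tau-LacZ in place of the Olfr78 coding exon in every tissue. There were also 3 control (eCtrl) and 2 eKO mice of the Vil1Cre/+-Olfr78fx line. In the study's eKO genotype, Vil1Cre/+-Olfr78fx/fx, Cre driven by the Villin promoter removes Olfr78 from the epithelium. The study's controls of this line were Vil1+/+-Olfr78fx/fx, without Cre, or Vil1Cre/+-Olfr78+/+, without the floxed allele. The genotype labels of the second line did not separate its groups fully. The library labelled eKO mouse 2 carries the genotype WT/HO, as eCtrl mouse 2 does, whereas eKO mouse 1 carries HE/HO and eCtrl mice 1 and 3 carry HE/WT. If these labels name Vil1Cre first and Olfr78fx second, WT/HO is the control genotype without Cre and HE/HO the eKO genotype. Results on this line are therefore given with and without the library labelled eKO mouse 2.

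Tuft cells sense luminal signals with the machinery of taste cells, in which a receptor acts through a G protein and a phospholipase to release calcium and open a cation channel. They answer with the cytokine IL-25, with cysteinyl leukotrienes and with acetylcholine, and so set off the type 2 immune circuit of the gut. Their fate depends on the transcription factor Pou2f3.

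Values were gene reads scaled to 20000000 per library (CP20M). The reads on genes, recovered from the scaled values, were 532704 in KO pool 1, 1499834 to 2237475 in the other 5 sorted libraries and 6175301 to 10995288 in the crypts. One read was therefore worth 8.94 to 13.3 CP20M in those sorted libraries, 37.5 in KO pool 1 and 1.82 to 3.24 in the crypts. The targeted gene, Olfr78, stood at 4822 and 4401 CP20M in HE GFP+ve pools, 977 and 837 in KO GFP+ve pools, and 135 and 21 in WT Epcam+ve cells. In crypts it stood at 88 and 111 in WT mice and at 7 to 42 in KO mice, at 105, 61 and 124 in eCtrl mice, 21 in eKO mouse 1 and 73 in the library labelled eKO mouse 2, which lay within the range of the controls. These values sum all exons of the gene, so they do not measure the removed coding exon alone. Enteroendocrine markers, which mark the hormone-secreting cells of the gut, summed to 863433 and 1116113 CP20M in HE GFP+ve pools and to 12793 and 13106 in WT Epcam+ve cells.

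Promoter sequences, from 250 bases before to 50 bases after an annotated start (RefSeq, GRCm38.p6), were found for 6 of the 9 genes. Those of Rgs13, Dclk1 and Trpm5 are shown 5′ to 3′ on the strand of the gene. Rgs13 was the most abundant of the 9 per length of transcript in the crypts. Dclk1 and Trpm5 were the pair whose levels varied together most closely over the crypts. Capitals mark the letters TGCAAA or their reverse complement TTTGCA, the core of the octamer that POU factors such as Pou2f3 are known to bind.
Rgs13, chr1:144177323-144177622, minus strand: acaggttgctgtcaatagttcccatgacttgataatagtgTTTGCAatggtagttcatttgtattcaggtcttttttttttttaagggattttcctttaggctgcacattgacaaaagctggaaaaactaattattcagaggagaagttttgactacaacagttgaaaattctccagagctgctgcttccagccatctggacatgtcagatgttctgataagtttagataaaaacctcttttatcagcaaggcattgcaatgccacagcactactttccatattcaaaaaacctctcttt
Dclk1, downstream start, chr3:55461478-55461777, plus strand: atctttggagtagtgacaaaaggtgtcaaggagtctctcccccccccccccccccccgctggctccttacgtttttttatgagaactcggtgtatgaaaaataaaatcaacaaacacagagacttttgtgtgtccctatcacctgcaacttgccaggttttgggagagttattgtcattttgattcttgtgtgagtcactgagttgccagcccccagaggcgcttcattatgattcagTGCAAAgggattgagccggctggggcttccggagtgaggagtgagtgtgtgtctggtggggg
Trpm5, chr7:143094593-143094892, minus strand: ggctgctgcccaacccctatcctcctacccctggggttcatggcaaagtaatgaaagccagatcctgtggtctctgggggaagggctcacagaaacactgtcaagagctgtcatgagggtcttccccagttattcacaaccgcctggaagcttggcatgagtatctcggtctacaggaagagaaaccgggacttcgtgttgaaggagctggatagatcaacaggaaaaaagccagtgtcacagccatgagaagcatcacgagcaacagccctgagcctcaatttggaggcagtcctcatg
The core was present in 3 of the 7 promoters of these genes, those of Rgs13, Ltc4s and the downstream start of Dclk1, and in 15.479% of 32851 promoters, on either strand. The whole octamer ATGCAAAT was in 0 of the 7 and in 1.735% of all, so the Trpm5 window above holds neither form. The deposited values do not separate the 2 starts of Dclk1, and Il25, Pou2f3 and Alox5ap had no entry.

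Across the 12 crypt libraries all 9 genes were detected, though Il25 not in every library and with at most 2 reads in any. Rgs13 was the highest per length of transcript. Levels are given here as CP20M per kilobase of merged exons. Rgs13, a regulator that shortens G protein signalling, was highest at 128 ± 45.5 (SD, n = 12) and lay above Trpm5 in 12 of 12 libraries. Trpm5, the calcium-activated cation channel of taste transduction, stood at 58.1 ± 16.1, and Dclk1, a microtubule-associated kinase used as a tuft cell marker, at 52.3 ± 10.1. These neighbours did not differ beyond their spread, with Trpm5 above Dclk1 in 7 of 12 libraries. Ltc4s, the synthase of leukotriene C4, stood at 42.1 ± 13.1 and Gnat3, the G protein alpha subunit gustducin, at 39.6 ± 19.2, and Ltc4s was the higher in 8 of 12. This order differed between groups, since Gnat3 had a mean of 65.4 in eCtrl crypts, above the 64.5 of Dclk1 and the 57.9 of Ltc4s. In eKO crypts it had 43.4, below the 44.1 of Dclk1 (39.7 and 42.1 in eKO mouse 1 alone). In WT and KO crypts Gnat3 had 28.3 and 27.2. Alox5ap, the protein that presents arachidonic acid to 5-lipoxygenase, followed at 21.9 ± 9.12, then Plcb2, the phospholipase C of the taste cascade, at 18.4 ± 2.66, and Pou2f3 at 17.9 ± 4.08. Neighbours in this last group also overlapped, with Alox5ap above Plcb2 in 8 of 12 libraries and Plcb2 above Pou2f3 in 7 of 12. Il25 was far below the others at 2.35 ± 1.98 and was the lowest of the 9 in 12 of 12 libraries.

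**Figure D1:**
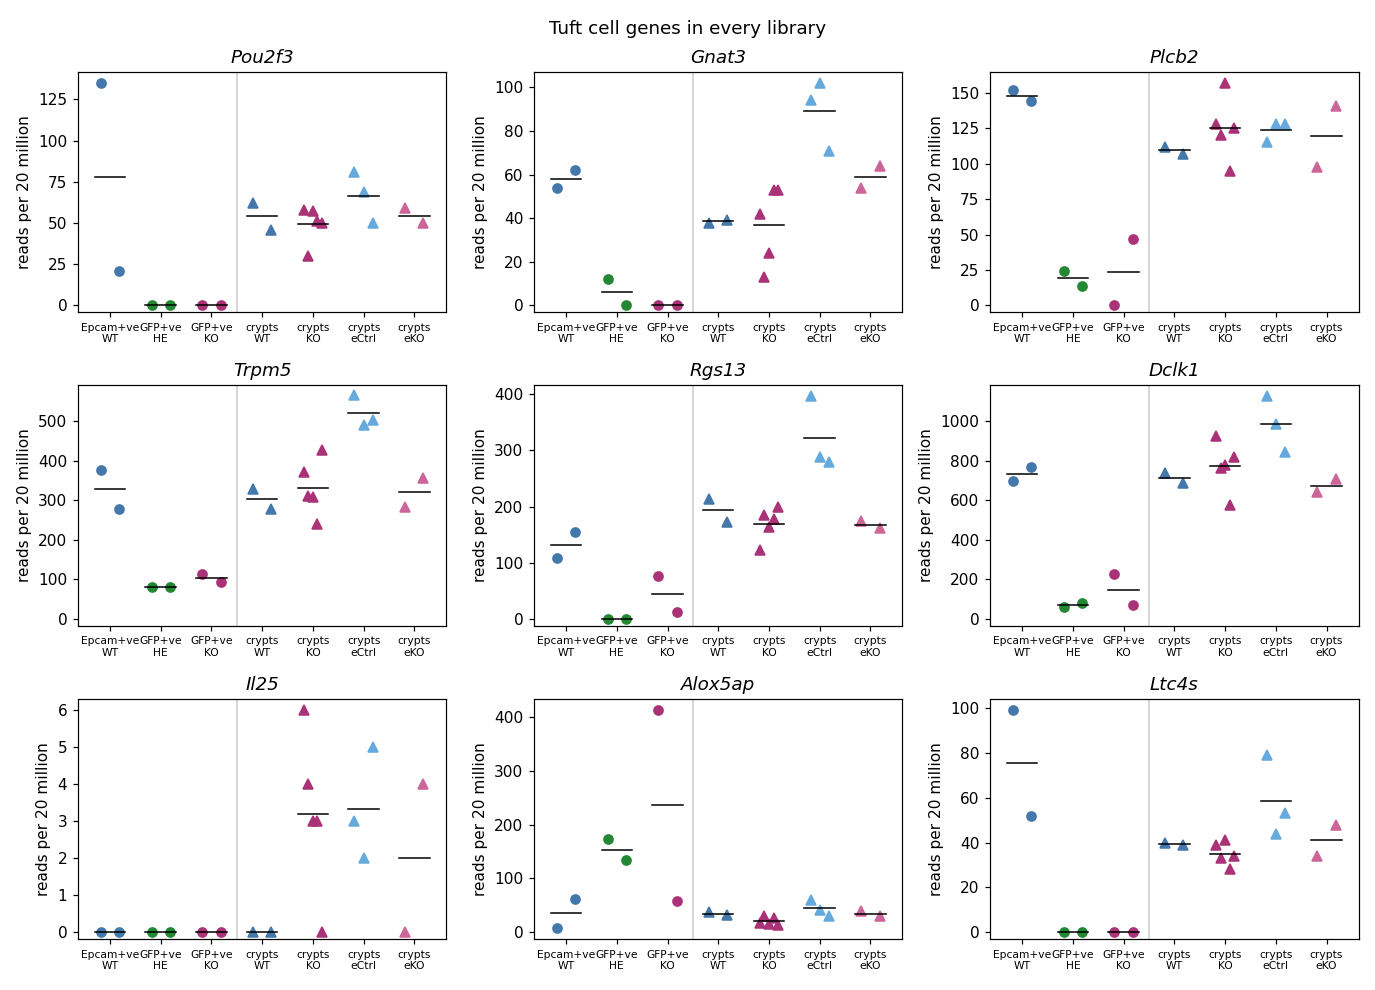
Values of the 9 tuft cell genes in CP20M (y axis, linear, own scale in each panel) in each of the 18 libraries, with circles for sorted cells, triangles for crypts and a line at each group mean. Pou2f3 and Ltc4s were at 0 in all GFP+ve pools, Il25 was at 0 in all sorted libraries, and Alox5ap was higher in both HE pools than in both Epcam+ve samples.

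In the GFP+ve cells of HE mice 7 of the 9 genes had lower values than in both samples of Epcam+ve cells. Alox5ap had higher ones, and Il25 was not detected in either group of cells. The count of 7 is not read against all genes tested below, of which 33.1% were lower without overlap. Pou2f3 was too low to enter that test. Rgs13, Gnat3, Plcb2 and Ltc4s entered it only through WT Epcam+ve cells, where they are high. Pou2f3 stood at 135 and 21 CP20M in WT Epcam+ve cells (15 and 2 reads, by coincidence the counts that Olfr78 had in these libraries) and was not detected in the HE or KO pools. The 0 of 3237970 reads in HE GFP+ve pools allows up to 18.5 CP20M, a limit 4.39-fold below the pooled Epcam+ve level, and the limit for KO GFP+ve pools lies 3.05-fold below it. With Epcam+ve sample 2 as the only reference these become 1.11-fold and 0.772-fold, so the difference of Pou2f3 rests on sample 1. Intervals and limits cover counting error only, and in bulk libraries fewer cells of a type and less RNA per cell cannot be told apart.

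Among the 9 genes, Gnat3, Plcb2 and Trpm5 belong to the taste cascade, and Rgs13, a regulator of G protein signalling, is given with them. Gnat3 stood at 54 and 62 CP20M in WT Epcam+ve cells, 12 and 0 in HE GFP+ve pools and 0 in both KO pools. The single Gnat3 read in HE GFP+ve pools gave a ratio of 0.108 to WT Epcam+ve cells, with a 95% exact interval of 0.00252 to 0.728. Plcb2 stood at 152 and 144 in WT Epcam+ve cells, 24 and 14 in HE GFP+ve pools and 0 and 47 in KO GFP+ve pools. Both Epcam+ve samples lay above all 4 pools for these genes, and the 3 Plcb2 reads of HE GFP+ve pools gave a ratio of 0.125 (0.0245 to 0.401).

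Of these 4 genes, Trpm5 was detected in all 4 GFP+ve pools. It stood at 376 and 278 CP20M in WT Epcam+ve cells, 81 in each HE pool and 113 and 93 in KO GFP+ve pools, from 13 reads in HE GFP+ve pools and 11 in KO GFP+ve pools. The HE pools were 4.11-fold lower than WT Epcam+ve cells (95% exact interval of the pooled reads 2.25 to 8.10). Rgs13 stood at 108 and 155 in WT Epcam+ve cells and was not detected in HE GFP+ve pools, at least 6.96-fold lower (5.79-fold and 8.32-fold against either sample alone), while 3 reads gave 76 and 12 in KO GFP+ve pools.

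Dclk1 was likewise detected in all 4 pools. It stood at 698 and 771 CP20M in WT Epcam+ve cells, 58 and 81 in HE GFP+ve pools and 226 and 70 in KO GFP+ve pools. The groups did not overlap, and HE GFP+ve pools were 10.8-fold lower (5.85 to 22.0) on 11 reads against 153. The 226 of KO pool 1 came from 6 reads, as did the 70 of KO pool 2.

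The genes of the effector products did not move as 1 group. Il25 was at 0 in all 6 sorted libraries, which allows up to 14.3 CP20M in WT Epcam+ve cells and 18.5 in HE GFP+ve pools. Ltc4s stood at 99 and 52 in WT Epcam+ve cells and was not detected in the HE or KO pools, at least 4.13-fold and 2.87-fold lower than the pooled Epcam+ve level. Against Epcam+ve sample 2 alone, with 5 reads, these are 2.77-fold and 1.93-fold. Alox5ap, which acts upstream of Ltc4s in leukotriene synthesis, stood at 9 and 62 in WT Epcam+ve cells but at 173 and 134 in HE GFP+ve pools, a ratio of 4.62 (1.94 to 12.6). Its log2 difference of 2.13 became 1.17 (limma adjusted p = 0.353) without Epcam+ve sample 1 and 3.09 (0.041) without sample 2. In KO GFP+ve pools it stood at 413, from 11 reads of the shallow pool 1, and at 59, so these overlapped WT Epcam+ve cells. Per kilobase of exons Alox5ap was thus the highest of the 9 genes in the GFP+ve pools, at a mean of 108 CP20M per kilobase in HE and 166 in KO mice, whereas in WT Epcam+ve cells it was 7th and Rgs13 led at 79.5.

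In the test across all genes, by limma on log2(CP20M + 10) and adjusted over all genes after Benjamini and Hochberg, 7 of the 9 genes passed the filter of at least 40 CP20M in at least 2 of the 4 libraries, and Pou2f3 and Il25 did not. The study's thresholds for this comparison, an adjusted p under 0.001 and a log2 fold change beyond 2, were passed by 0 of the 7, against 1.75% of all genes tested, and 7 of the 7 had an unadjusted p under 0.05, as did 37.2% of all genes. On the recovered reads, edgeR's quasi-likelihood test and DESeq2 each called 1 of the 7, Dclk1, and 4.63% and 4.23% of all genes. Dclk1 is the gene that limma also called without HE pool 1, together with Rgs13, or without HE pool 2. The difference between HE pools and Epcam+ve samples was -3.24 ± 0.40 (SE) for Dclk1 by limma, with an adjusted p of 0.00135. It was -1.87 ± 0.46 for Trpm5 (limma adjusted p = 0.0209), -2.47 ± 0.60 for Plcb2 (0.0207) and -2.19 ± 0.72 for Gnat3 (0.0581). Rgs13 and Ltc4s had limma adjusted p-values of 0.00533 and 0.0162, and Alox5ap, the one positive difference at 2.13 ± 0.75, had 0.0717, without overlap between the groups (30.4% of all genes were higher without overlap). At an adjusted p under 0.05 with no fold threshold, a choice made after seeing the data, Dclk1, Trpm5, Rgs13, Plcb2 and Ltc4s were lower, where 11.3% of all genes were. Rgs13, Gnat3, Plcb2 and Ltc4s passed the filter through WT Epcam+ve cells alone, where they are high, so they could enter the test only as lower genes and their number is not read against the other genes. The other 3 members tested reached 40 CP20M in both HE pools too, and of these Dclk1 and Trpm5 were lower without overlap, as were 33.1% of all genes. Both Epcam+ve samples came from 1 mouse, so the p-values measure the spread between these samples and pools.

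**Figure D2:**
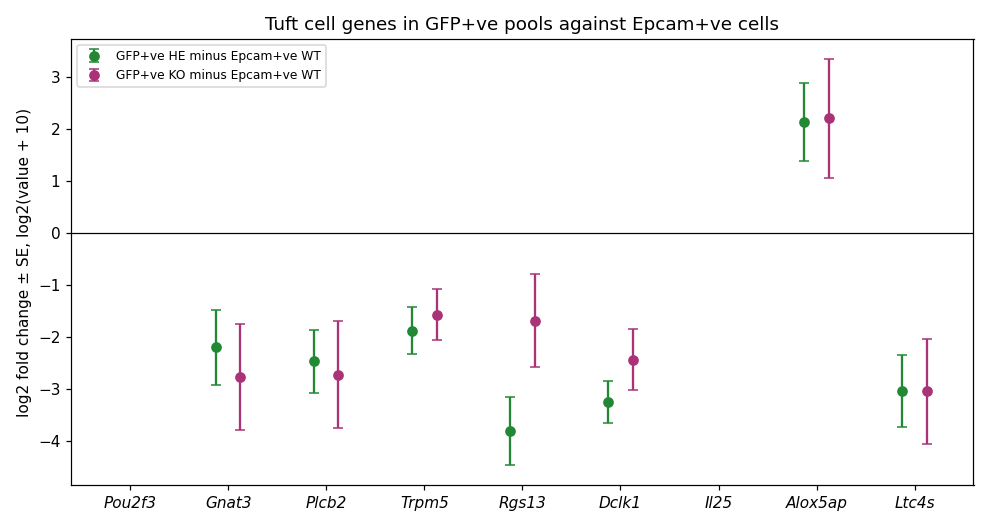
Log2 fold change of each tuft cell gene that passed the filter (y axis, difference of mean log2(CP20M + 10), bars for SE) in GFP+ve HE pools and GFP+ve KO pools against the same 2 Epcam+ve samples. In both, Dclk1 and Trpm5 lay below 0 and Alox5ap above it, at 2.13 in HE pools and 2.21 in KO pools, and the 4 other genes, which passed the filter through the Epcam+ve samples alone, lay below 0.

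KO GFP+ve pools gave like values with wider errors. Against the same WT Epcam+ve cells, Dclk1 and Trpm5 were lower without overlap, as were 35.5% of all genes. Rgs13, Gnat3, Plcb2 and Ltc4s were too, but passed the filter through WT Epcam+ve cells alone. Of the 7 genes tested, 0 passed the thresholds by limma, as did 0% of all genes. Without a fold threshold, at an adjusted p under 0.05, 0 of the 7 were past it by limma, against 0.621% of all genes upward and 0.114% downward. An unadjusted p under 0.05 was seen for 5 of the 7 and for 18.5% of all genes, and edgeR and DESeq2 also called 0 of the 7. Dclk1 differed by -2.44 ± 0.59 (limma adjusted p = 0.156), and Trpm5 by -1.57 ± 0.49 (0.215). Without KO pool 1 Dclk1 was at -3.22 and called by limma, and Plcb2 at -1.47, with 210 genes called in all. Without KO pool 2 Dclk1 was at -1.66, and Plcb2 was at -3.98 and called on 0 reads in the shallow pool 1, with 1753 genes called in all. Because HE and KO pools share WT Epcam+ve cells as a reference, these values are not a second independent comparison. Over all genes the median difference was -0.26 here, and median-of-ratios rescaling moved it up by 0.17, which left the 6 lower genes at -1.39 to -2.94 and Alox5ap at 2.33.

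KO against HE pools asks whether loss of Olfr78 changed the sorted cells. Dclk1, Trpm5 and Alox5ap exceeded 40 CP20M in all 4 pools and could be tested, and 0 of the 3 passed an adjusted p under 0.05 by limma, edgeR or DESeq2, as 0% of all genes did by limma, nor had any of the 3 an unadjusted p under 0.05 by limma. The criterion of the study's methods, a difference of means beyond 2 average SDs and a ratio beyond 1.5-fold, was met by 0 of the 3 and by 13.2% of all genes. Dclk1 differed by 0.80 ± 0.65 (limma adjusted p = 0.931) and Trpm5 by 0.31 ± 0.52 (0.956), the latter higher without overlap, as were 8.91% of all genes. Alox5ap differed by 0.07 ± 0.83 (limma adjusted p = 0.995), a value that turned to -1.23 without KO pool 1 and to -0.10 without HE pool 2. The reads of these genes were too few to show a small difference, and the ratio of pooled Dclk1 reads, 1.57, had an interval of 0.633 to 3.92.

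Other genes known from tuft cells were split in HE GFP+ve pools. Of 20 genes of tuft cell structure and signalling, 17 were tested and none passed the thresholds. Of the 17, 5 passed the filter through WT Epcam+ve cells alone, and of the other 12, 8 had a log2 fold change below 0, against 52.3% of all genes. At an adjusted p under 0.05 by limma, 4 of the 17 were lower and 1 was higher. The lower ones include genes that passed the filter through WT Epcam+ve cells alone, as Inpp5d and Sh2d7 did. Such genes could enter the test only as lower genes, so the number of lower genes is not read against all genes. Inpp5d, a lipid phosphatase of signalling, stood at a mean of 6 CP20M in HE pools and 105.5 in Epcam+ve samples (-2.96 ± 0.70, limma adjusted p = 0.0178), and Sh2d7, an adaptor with an SH2 domain, at 13 and 112 (-2.33 ± 0.66, 0.0364). Kctd12, an auxiliary subunit of the GABA-B receptor, was the higher one, at 1750 and 2027 in HE GFP+ve pools and 859 and 689 in WT Epcam+ve cells (1.28 ± 0.22, limma adjusted p = 0.00563).

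The wider taste cascade held the gene that passed the thresholds upward. Itpr3, the inositol trisphosphate receptor that releases calcium downstream of Plcb2, stood at 15557 and 13682 CP20M in HE GFP+ve pools and 3656 and 2353 in WT Epcam+ve cells, a rise of 2.31 ± 0.23 with a limma adjusted p of 0.000453. Of 11 genes of this list, 6 were tested, 1 passed upward and 0 downward, and of the 5 that had not passed the filter through WT Epcam+ve cells alone, 4 lay above 0. Rgs2, another regulator of G protein signalling, differed by -2.02 ± 0.50 (limma adjusted p = 0.0221). Of 8 genes of eicosanoid synthesis, 6 were tested and 0 passed, and of the 4 that had not passed the filter through WT Epcam+ve cells alone, 3 lay below 0. Pla2g4a, the phospholipase that frees arachidonic acid, stood at means of 312.5 and 1492 (-2.33 ± 0.39, limma adjusted p = 0.0045), and Alox5, the lipoxygenase that Alox5ap serves, at 19 and 73.5 (-1.51 ± 0.66, 0.134). Alox5 passed the filter through WT Epcam+ve cells alone, where it is high, so its side of 0 is not set against that of Alox5ap.

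**Figure D3:**
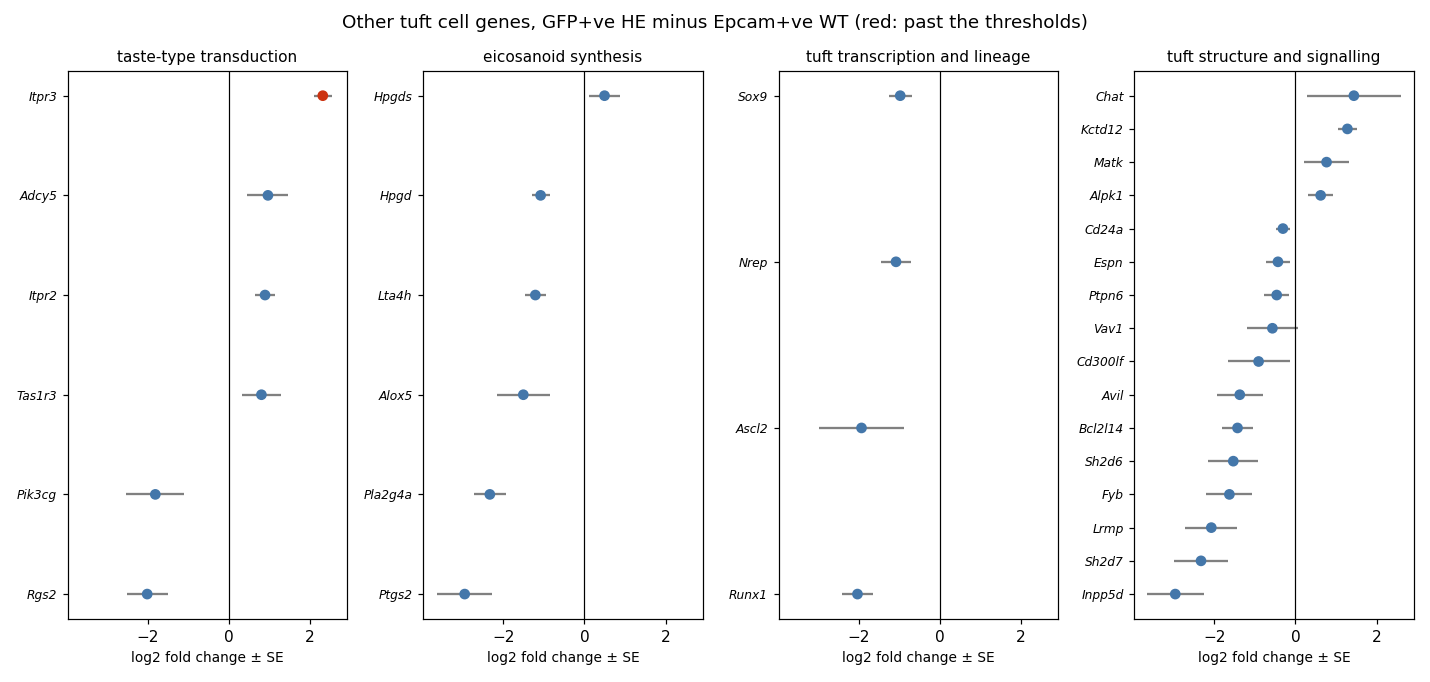
Log2 fold change (x axis, GFP+ve HE pools minus Epcam+ve samples on log2(CP20M + 10), bars for SE) of tested genes of 4 lists related to tuft cells. Red marks Itpr3, the only gene of these lists past the thresholds, at 2.31, and low genes enter the plot only through the group where they are high.

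Of 8 genes of tuft cell transcription and lineage, 4 were tested, none past the thresholds, and of the 3 that had not passed the filter through WT Epcam+ve cells alone, 3 lay below 0. Runx1, a transcription factor of blood and epithelial lineages, stood at means of 189 and 805.5 CP20M (-2.03 ± 0.38, limma adjusted p = 0.0073). Of 10 genes of the type 2 circuit, 7 were tested and 0 passed, and of the 6 that had not passed the filter through WT Epcam+ve cells alone, 5 lay below 0. Markers of other epithelial types were also mostly below 0. The 8 goblet markers had a median of -1.75, with Spink4 past the thresholds (-2.85 ± 0.22, limma adjusted p = 0.00011), and the 8 colonocyte markers had -1.45, although Krt20 rose by 2.76. Enteroendocrine markers had a median of 6.30, with 7 of 8 past the thresholds.

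Alox5ap is also made by mast cells and other leukocytes. Of 9 mast cell markers other than Kit, which the epithelium also expresses, 6 were at 0 in all sorted libraries, and their sum was 0 to 38 CP20M there. The 14 leukocyte markers summed to 250 and 315 in WT Epcam+ve cells, 242 and 316 in HE GFP+ve pools and 152 and 199 in KO GFP+ve pools, and Ptprc, the common leukocyte antigen, stood at 24 and 27 in HE GFP+ve pools, 0 and 35 in KO GFP+ve pools, and 54 and 31 in WT Epcam+ve cells. Their part in the Alox5ap values was not tested. An antisense gene overlaps exons of Alox5ap, Ltc4s, Trpm5 and Dclk1, by 114 to 268 bases, and the strand setting of the counting is not given in the sources used here, so reads of the partners cannot be told apart.

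Between WT Epcam+ve cells and WT crypts, 2 preparations of WT colon, no tuft cell gene passed the thresholds. Dclk1 stood at means of 735 and 715 CP20M, and Trpm5 at 327 and 303. Of the 7 genes tested, 0 passed an adjusted p under 0.001 and a log2 fold change beyond 2, against 0.752% of all genes, and none had an unadjusted p under 0.05 by limma (edgeR and DESeq2 also 0 of 7). Rgs13 was lower in Epcam+ve samples by -0.53 ± 0.31 (limma adjusted p = 0.242), the other genes differed by 0.04 to 0.73, and all genes had a median of -0.26, which median-of-ratios rescaling moved up by 0.25. Plcb2 was higher in Epcam+ve cells without overlap, as were 17.2% of all genes, and Rgs13 lower, as were 48% of all genes. Gnat3 and Ltc4s were also higher without overlap, but passed the filter through Epcam+ve cells alone, where they are high. They are therefore not read against that share. Pou2f3 gave 0.08 ± 0.68 (limma adjusted p = 0.946), and its Epcam+ve samples lay at 135 and 21 on either side of the WT crypts at 62 and 46.

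Loss of Olfr78 in all tissues did not give a detectable difference in the crypts. Dclk1 stood at 741 and 688 CP20M in WT and at 928, 762, 779, 576 and 822 in KO mice, and Trpm5 at 328 and 277 against 371, 311, 307, 240 and 426. For both genes the WT values fell within the range of the KO values. Rgs13 stood at 214 and 172 in WT and at 122 to 200 (median 178) in KO mice, Plcb2 at 112 and 107 and at 95 to 157 (median 125). Gnat3 stood at 38 and 39 in WT and 13 to 53 (median 42) in KO mice, Ltc4s at 40 and 39 and 28 to 41 (median 34), and Pou2f3 at 62 and 46 and 30 to 58 (median 51). These 5 genes overlapped as well.

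Il25 was at 0 in both WT crypts, which allows up to 3.67 CP20M, and at 6, 4, 3, 3 and 0 in KO crypts, a difference of single reads. Alox5ap stood at 38 and 32 in WT and at 17, 30, 15, 26 and 14 in KO crypts, lower in all 5 KO mice, but it did not pass the filter and was not tested in this line, where 13.1% of the genes tested were lower without overlap. The leukocyte markers were lower in the same KO crypts, at sums of 500 to 849 against 1053 and 1266, with 5 of 9 tested past the thresholds downward (Cd74, Coro1a, Laptm5, Lyz2 and Ptprc), and their part in the Alox5ap values was not tested.

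Of the 7 members tested in KO against WT crypts, 0 reached an adjusted p of 0.2 or less with a fold change beyond 1.5, whereas 9.48% of all genes did. None of the 7 had an unadjusted p under 0.05 by limma, and edgeR and DESeq2 also called 0 of the 7. The differences ran from -0.18 ± 0.20 for Rgs13 to 0.16 ± 0.20 for Plcb2, with limma adjusted p-values up to 0.846. Dclk1 differed by 0.10 ± 0.15 (limma adjusted p = 0.725) and Trpm5 by 0.11 ± 0.19 (0.764). With 7 mice, a small difference between the genotypes was not detectable. Among the related lists, Adcy5, an adenylyl cyclase of the taste cascade list, rose from a mean of 59.0 to 96.4 CP20M (0.61 ± 0.22, limma adjusted p = 0.108). Retnlb, a goblet cell effector of type 2 immunity, fell from a mean of 1459 to 743 (-0.87 ± 0.24, limma adjusted p = 0.0442). Of 18 tested genes of structure and signalling 10 lay above 0 (median 0.02) and 0 passed, as did 0 of 6 of eicosanoid synthesis and 0 of 5 of transcription and lineage.

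In the Vil1Cre/+-Olfr78fx line 4 of the 8 genes tested were lower in both eKO than in all eCtrl crypts, and none passed the test across all genes. Trpm5 stood at 566, 490 and 502 CP20M in eCtrl and at 282 and 357 in eKO mice 1 and 2. Rgs13 stood at 396, 288 and 280 in eCtrl and at 174 and 161 in eKO crypts. Dclk1 stood at 1129, 986 and 843 against 644 and 706, and Gnat3 at 94, 102 and 71 against 54 and 64. For these 4 genes both eKO libraries lay below all 3 eCtrl libraries, the library labelled eKO mouse 2 included, although its Olfr78 value lay within the control range.

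The other genes of the list overlapped between eKO and eCtrl. Ltc4s stood at 79, 44 and 53 CP20M in eCtrl and 34 and 48 in eKO crypts, Pou2f3 at 81, 69 and 50 and at 59 and 50, and Plcb2 at 115, 128 and 128 and at 98 and 141, on either side of the controls. Alox5ap stood at 60, 42 and 31 in eCtrl and 39 and 30 in eKO crypts, and Il25 at 3, 2 and 5 and at 0 and 4.

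Of the 8 members tested, 0 reached an adjusted p of 0.2 or less with a fold change beyond 1.5, as did 0% of all genes, and 3 had an unadjusted p under 0.05 by limma, against 0.825% of all genes. The differences were -0.88 ± 0.22 for Rgs13, -0.69 ± 0.18 for Trpm5, -0.53 ± 0.17 for Dclk1 and -0.51 ± 0.29 for Gnat3, and the limma adjusted p was 1.00 for each. The 4 genes without overlap make up 4 of 8 members tested, against 2.79% of all genes that were lower in eKO crypts without overlap, and 0 were higher without overlap, against 7.58%. All 8 lay below 0, against 43% of all genes, with a median of -0.46 against 0.03. Of these, Alox5ap and Ltc4s passed the filter through eCtrl crypts alone, where they are high. The full count of 8 is therefore not read against that share. Without the library labelled eKO mouse 2 the differences were -0.83 for Rgs13, -0.86 for Trpm5, -0.60 for Dclk1 and -0.62 for Gnat3, and 0 of 8 passed. The leukocyte markers summed to 719 to 1827 in eCtrl and 865 to 885 in eKO crypts, and epithelial markers to 126148 to 141057 and 142455 to 149753, and their part in these differences was not tested.

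**Figure D4:**
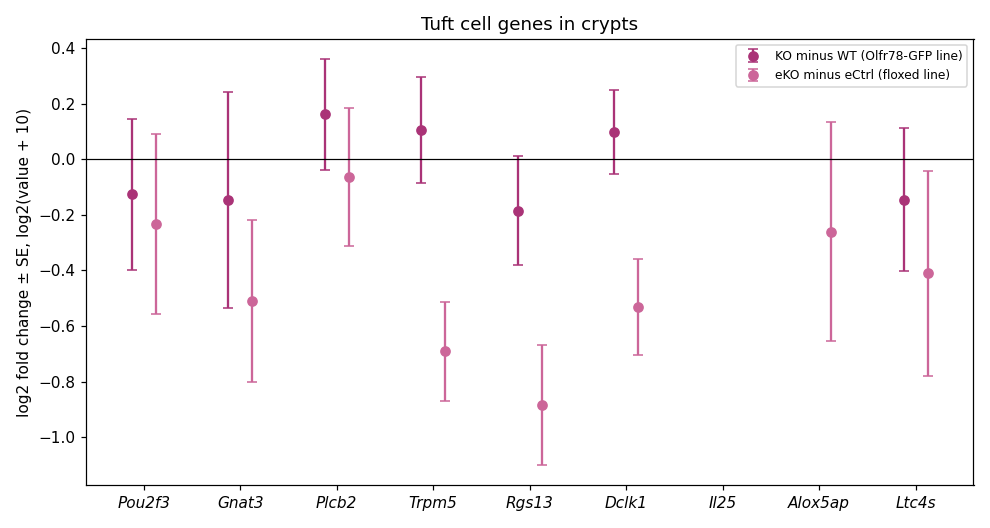
Log2 fold change of each tuft cell gene that passed the filter in crypts (y axis, difference of mean log2(CP20M + 10), bars for SE), KO minus WT in the Olfr78-GFP line and eKO minus eCtrl in the Vil1Cre/+-Olfr78fx line. The first set scatters around 0, from -0.18 to 0.16, and all 8 values of the second lie below 0, down to -0.88 for Rgs13. In the second set Alox5ap and Ltc4s passed the filter through eCtrl crypts alone, where they are high.

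Other tuft cell genes were examined in the same crypts. Of 18 tested genes of structure and signalling 0 passed, as 0% of all genes did. Of the 18, 14 lay below 0 (median -0.34), against 43% of all genes. Cd300lf, among them, passed the filter through eCtrl crypts alone, where it is high. The count of 14 is therefore not read against that share. Lower without overlap were 4 of the 18, against 2.79% of all genes. These 4 were Siglecf, a sialic acid-binding lectin, at means of 66.5 in eKO and 121 CP20M in eCtrl crypts (-0.77 ± 0.30), Fyb, an adaptor protein, at 151 and 226 (-0.55 ± 0.19), Lrmp at 213 and 314 (-0.52 ± 0.24) and Sh2d7 at 190 and 251 (-0.38 ± 0.20). Alox5 stood at 77 and 110 in eKO and 183, 120 and 126 in eCtrl crypts, without overlap (-0.56 ± 0.29). In the type 2 circuit, where 7 genes were tested, 4 lay above 0 and 3 below, and Il17rb, the receptor for IL-25, differed by -0.13 ± 0.25. Without the library labelled eKO mouse 2, 13 of the 18 lay below 0 (median -0.43), and the differences were -1.01 for Siglecf, -0.50 for Fyb, -0.63 for Lrmp, -0.38 for Sh2d7, -0.79 for Alox5 and -0.37 for Il17rb, an alternative added after seeing the data and with no test.

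Whether the effect of genotype differed between the lines was tested by an interaction term over all 12 crypt libraries. The difference of effects, floxed line minus Olfr78-GFP line, was -0.80 ± 0.28 for Trpm5, -0.70 ± 0.30 for Rgs13 and -0.63 ± 0.24 for Dclk1, each with a limma adjusted p of 0.557. Of 8 members tested, 0 passed an adjusted p of at most 0.2, against 0.0304% of all genes, and 3 had an unadjusted p under 0.05 by limma, against 8.77% of all genes. Without the library labelled eKO mouse 2, 2 of 8 passed by limma, Trpm5 at -0.96 (adjusted p = 0.0916) and Dclk1 at -0.69 (0.142), while the number of all genes that passed went from 5 to 4296. That fit left 1 eKO library, which was assumed to vary like the other groups.

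Over both lines, with the line as a covariate, 0 of 8 members passed, against 0.0243% of all genes, and 1 of the 8 had an unadjusted p under 0.05 by limma, against 7.7% of all genes, with 0 called by edgeR or DESeq2. Alox5ap passed the filter through eCtrl crypts alone, where it is high, so neither its side of 0 nor its rank is read here. Rgs13 had the largest difference, -0.50 ± 0.17 (limma adjusted p = 0.615). Alox5ap was at -0.44 ± 0.22 (limma adjusted p = 0.646), and Plcb2 was the only one above 0, at 0.06 ± 0.15 (0.93). Without the library labelled eKO mouse 2 these were -0.41 for Rgs13, -0.43 for Alox5ap and -6.52e-05 for Plcb2, and 0 of 8 passed. The control groups themselves stood apart in level. Trpm5 was 490 to 566 in eCtrl and 277 and 328 in WT crypts, Rgs13 280 to 396 and 172 and 214, and Gnat3 71 to 102 and 38 and 39, whereas the eKO values of Trpm5, 282 and 357, lay within the 240 to 426 of KO crypts. The lines have distinct genetic backgrounds, as the study states, and come from separate tables, so these levels are set side by side without a test.

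Correlations between genes were computed for the 7 members other than Il25 and Alox5ap. After centring within each line, Dclk1 and Trpm5 followed each other most closely over the 12 crypt libraries, with a Pearson correlation of 0.90 on log2(CP20M + 10), and Dclk1 and Ltc4s had 0.72. Plcb2 had 0.44 with both Dclk1 and Trpm5 and 0.36 with Ltc4s, but -0.02 with Pou2f3, -0.12 with Rgs13 and -0.22 with Gnat3. The other pairs ranged from 0.17 for Gnat3 and Ltc4s to 0.66 for Trpm5 and Ltc4s. These are descriptions, since libraries of a line share their table and centring leaves the genotype in.

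**Figure D5:**
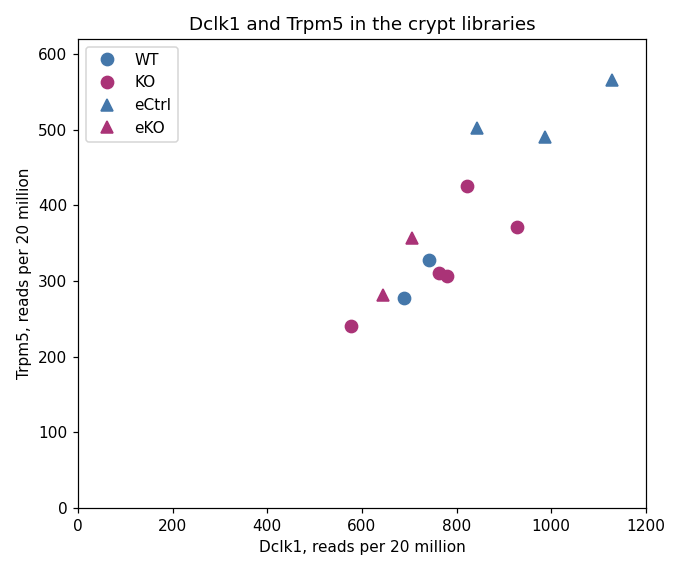
Trpm5 (y axis) against Dclk1 (x axis), both in CP20M on linear axes from 0, in the 12 crypt libraries, with circles for WT and KO mice and triangles for eCtrl and eKO mice. The 3 eCtrl libraries lie highest in Trpm5, at 490 to 566, and the 2 eKO libraries lie among those of the other line.

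The 6 genes most like the mean of the 7 members with enough reads, Dclk1, Trpm5, Rgs13, Pou2f3, Gnat3, Plcb2 and Ltc4s, among 15046 genes were D930007J09Rik (r = 0.89), Zfp81 (0.87), Kif26b (0.86), Gm43634 (0.85), Pik3r5 (0.84) and Anxa13 (0.83), over 12 libraries. Pik3r5 is a regulatory subunit of phosphoinositide 3-kinase gamma, and Kif26b is a kinesin. Of the other tuft cell genes Alox5 came 7th (0.83) and Kctd12 11th (0.80), which were singled out after their values were seen. Other genes of the same lists ran the opposite way, as Itpr3 (-0.57, rank 14658), Nrep (-0.41, rank 13702) and Pla2g4a (-0.31, rank 12519) did. Ptprc came 142nd at 0.59.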

How the data were processed

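Alignment was by STAR against GRCm38 and gene counting by HTSeq with Ensembl release 90, as the study's methods state. The strand setting is not given in the sources used here. Gene reads, set to a common total of 20000000 and rounded upward (CP20M), are what the authors deposited as a table with the Olfr78-GFP line and a table with the floxed line. These deposited values are treated as a signal for sorted cells, where the worth of 1 read shows in the low values, and as a score for crypts, where rounding hides it in the lowest values. Whole reads were recovered from the steps of the values, for 99.84% to 99.99% of the values above 0 of a library, counting a value as whole only where it equalled a whole number of reads times the step, rounded up. All columns of both tables were used, and those columns hold no comparison of the authors. Groups came from the sample titles. Exon lengths and overlaps came from GENCODE M21.

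Genes with at least 40 CP20M in at least 2 of the libraries compared (above 40 in all 4 pools for KO against HE) were tested with limma 3.58.1, letting the spread follow expression level, from log2(CP20M + 10), two-sided, adjusted by Benjamini-Hochberg over all genes tested. Tests by edgeR 4.0.16 and DESeq2 1.42.0 on the recovered reads were alternatives. Fold changes on this scale understate those of low genes. The thresholds for HE pools against Epcam+ve samples and for knockout against control crypts were taken from the study's methods. Those of KO pools against Epcam+ve samples and of Epcam+ve samples against WT crypts were carried over from like comparisons. The line difference took the adjusted p of the crypts, without a fold threshold. For KO against HE pools the adjusted p under 0.05 is not from the study's methods, whose own criterion was given beside it. The steps were tested on simulated data. Named were the 9 genes, Olfr78, genes of the lists past a threshold and the 6 genes most alike over the crypts; other list genes were named as examples after their values were seen. The genes and the lists were chosen with earlier results of these data known. One gene of the structure and signalling list was counted with its list and is not reported here by itself.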

Additional observations from a re-analysis of the deposited data

Results flagged for a closer look

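Pou2f3 in KO crypts had 1 library far from the other 4, mouse 2 at 30 CP20M against 50 to 58, a gap of 0.714 of the whole range in a group of 5. Chance gives such a gap in about 1 of 20 groups, and 10 genes were looked at in this way, Olfr78 included.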

How the results depend on the processing

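In GFP+ve pools each tuft cell gene rested on at most 25 reads a group, which limits the precision of its fold change. For HE pools against Epcam+ve samples, 0 of 7 genes were called, which became 1 with a pseudocount of 40, by edgeR, by DESeq2, with no filter on low values and with the replicate number as a block, 3 with all libraries of the table in 1 fit, and 5 at an adjusted p under 0.05 with no fold threshold. The genes called in all moved with these, from 287 to between 370 and 757 in the first 5, 951 in 1 fit and 3892 with no fold threshold, and to 0 with no trend of the spread. Leaving out 1 library gave 0 to 2, with Dclk1 and Rgs13 called without HE pool 1 (1195 genes in all) and Dclk1 without HE pool 2 (523). Without either Epcam+ve sample 3 members could be tested, 0 of them called. For KO pools against Epcam+ve samples, 0 became 1 with all libraries of the table in 1 fit (Ltc4s), and leaving out 1 library gave 0 to 1, with Dclk1 called without KO pool 1 and Plcb2 without KO pool 2. For the difference between the lines, leaving out 1 library gave 0 to 2. A lone library of a group was assumed to vary like the other groups. No member was called in the other comparisons under the alternatives that were run.

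Over 55 differences of single genes and 862 alternative values, 17 changed sign, all where 1 library was left out. In ranges over the libraries left out, these were Alox5ap in KO against HE pools (-1.23 to 1.38), Pou2f3 (-0.31 to 0.055), Trpm5 (-0.012 to 0.22) and Gnat3 (-0.28 to 0.086) in KO against WT crypts, Plcb2 in eKO against eCtrl crypts (-0.31 to 0.18) and over both lines (-6.52e-05 to 0.17), Pou2f3 (-0.29 to 0.076) and Plcb2 (-0.47 to 0.017) in the difference between lines, and Trpm5 (-0.11 to 0.31), Pou2f3 (-1.03 to 1.19) and Dclk1 (-0.032 to 0.11) in Epcam+ve samples against WT crypts. The cause was not tested.

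The replicate numbers are shared only as numbers. Deviations of same-numbered libraries correlated at 0.03 (HE) and 0.02 (KO) between GFP+ve pools and WT Epcam+ve cells, at -0.24 between the genotypes of GFP+ve pools, at 0.061 and -0.10 within the crypts of the Olfr78-GFP line and at 0.59 and 0.36 within those of the floxed line. The block changed the call of 1 member, Dclk1 in HE pools. With crossed numbers, a choice made after seeing the data, KO against HE pools gave 85 genes, 0 of them members, against 0 without the block.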
